A study of Mus musculus with 4 samples.

Results

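The genes described here are the cyclins, cyclin-dependent kinases, replication factors, mitotic kinases, centromere proteins and kinesins of the mouse, measured in embryonic gonads. They were chosen by symbol: cyclins A, B, D and E, the numbered Cdk, Cdc, Mcm, Orc, Kif and Plk genes, the Aurk, Bub and Cenp genes, and Birc5. The arrays held 120 such genes among 12817 genes with 1 symbol, and 107 of them had values on all 4 arrays, where 9757 genes in all were measured. The symbols also took in genes that only share a name, so the 107 were sorted by known role into 68 genes of division itself and 39 others, which were 15 further Cdks and Cdk partners, 12 transport kinesins and 12 other genes such as the Cdc42 effectors. The sorting by role was made after the values had been seen.

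Gonads were taken at 12 days post coitum from XY wild type, XX wild type and XX Wnt4-/- embryos and freed of the mesonephros, the adjoining embryonic kidney. Wnt4 is a secreted signal of the early ovary, and the mutant is labelled as homozygous. The Wnt4 probe stood at -0.08 and -0.18 in XX Wnt4-/-, and since no source gives its place relative to the deleted part, it checks nothing. Tissue of many embryos of each genotype was pooled in several groups before RNA isolation, and the labels do not give a strain or say whether both arrays of a pair carried separate extracts. XY and XX Wnt4-/- RNA (Wnt4 null from here on) were each set against XX wild type RNA on 2 arrays with the dyes exchanged: replicate 1 carried the XY or Wnt4 null RNA in Cy5, and replicate 2 in Cy3. XX wild type RNA is thus in both comparisons, and its own spread is not measured. It is labelled female wild-type on the XY arrays and female Wnt4 +/+ on the Wnt4 null arrays. No label says whether these are the same RNA.

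A dividing cell makes D and E cyclins to activate Cdk4, Cdk6 and Cdk2, loads the origin recognition complex and the Mcm helicase on DNA, and then copies its genome. Cyclins A and B with Cdk1, released by Cdc25 phosphatases, bring on mitosis, where Plk and Aurora kinases, motor kinesins and the centromere proteins move the chromosomes and Bub proteins hold the exit until all are attached. In the gonad at this age the XY organ is known for active proliferation at its surface and among Sertoli cell precursors, while germ cells of the XX organ approach meiosis and those of the XY organ approach arrest.

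All values are log2 ratios to XX wild type, with each array centred on its median, and a level of a gene as such is not known from them. The direction of the ratios is likely, not settled, because no label names the numerator. As deposited, XY replicate 1 and Wnt4 null replicate 1, which share a dye orientation, correlated at r = -0.62 over 12264 spots. XY replicate 1 was turned because the Y-linked Eif2s3y stood at -2.22 there and at 2.25 on XY replicate 2, and Xist at 1.67 and -1.22; a further Eif2s3y probe gave -0.64 and -0.46. On the Wnt4 null arrays, where both RNAs come from XX gonads, the first Eif2s3y probe stood at 1.53 and 0.18 as deposited. The further probe stood at 0.71 and -1.37 there. All columns but XY replicate 1 were kept as deposited in direction. After turning, the 107 genes correlated at r = -0.19 between both XY arrays and at -0.56 between both Wnt4 null arrays, so most of the spread among them did not repeat when the dyes were exchanged. These correlations are across genes, which are not independent replicates. In pooled tissue, fewer cells of a type and less RNA per cell cannot be told apart.

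In XY gonads the division genes lay slightly above XX wild type more often than below it, but by small amounts, and no single one passed the test. Of the 107 genes 37 were above 0 on both arrays (34.6%, against 22.3% of all genes), 18 were below 0 on both (16.8%, against 21.9%) and 52 had opposite signs (48.6%, against 55.7%). The split by role that follows was made after the values had been seen. Among the 68 genes of division itself 31 were above 0 on both arrays, 10 were below and 27 had opposite signs, with a median of 0.06. Among the 39 others the counts were 6, 8 and 25, and the median was 0.01. No gene of the 107 reached a 2-fold mean difference, which 1.74% of all genes did. The means ran from -0.58 for Kif2c to 0.72 for Cdc42ep1, and the median of all genes was 0.00. The limma fit without a dye term called 0 of the 107, and 0% of all genes, in either direction at a Benjamini-Hochberg adjusted p under 0.05. At an unadjusted p under 0.05 it held Birc5, Bub1b, Cdc25c, Cdc42se1 and Cdk5r2, 5 of the 107, against 6.02% of all genes. With a dye term 2 genes were higher in XY (1.79% of all genes were called higher) and 0 were lower (1.63%). At an unadjusted p under 0.05 the fit with the dye term held 24 of the 107, against 20.1% of all genes. It leaves 1 residual degree of freedom in place of 2 and assumes that a gene's dye effect is the same on all 4 arrays. With arrays also scaled to a common spread it called 10 of the 107 and 1079 of all 9757 genes. With centring in printed blocks it called 6 of the 107 and 654 of all genes. Both settings were chosen after seeing the data.

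**Figure D1:**
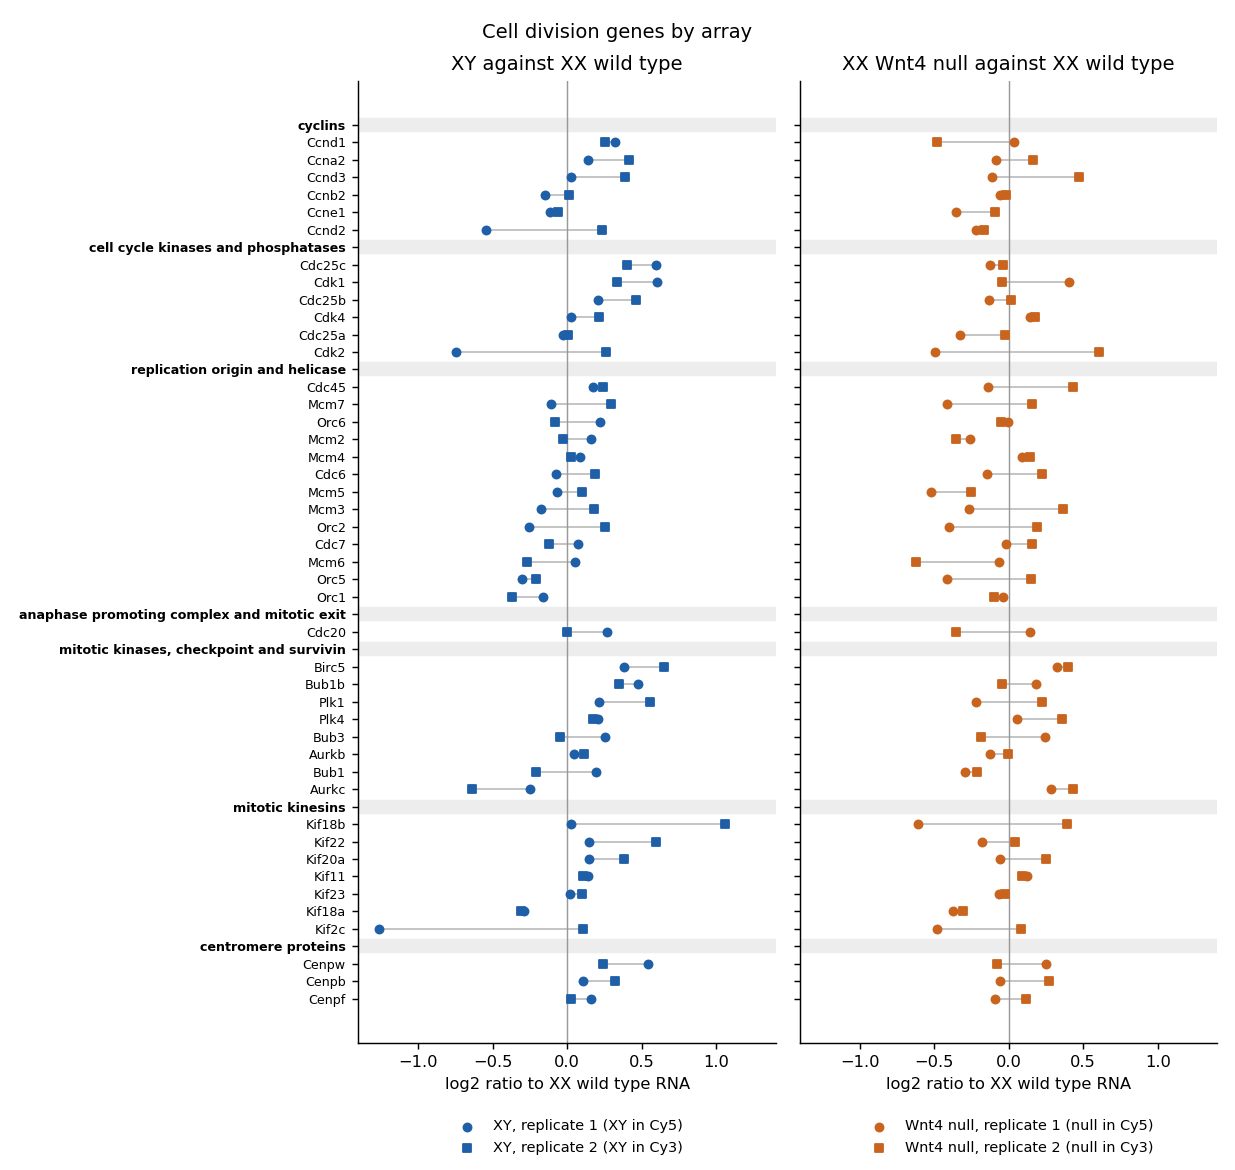
Log2 ratio to XX wild type on each of the 4 arrays for the named genes of division, with circles for replicate 1, squares for replicate 2, XY in the left panel and Wnt4 null in the right, and a bar joining both arrays of a gene. Birc5 stands above 0 on all 4 arrays, Cdc25c stands at 0.59 and 0.40 in XY and at -0.12 and -0.04 in Wnt4 null, and Cdk2 changes sign with the dye.

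The 2 genes that passed with the dye term are not genes of division: both act with Cdc42, a small GTPase of the actin skeleton. Cdc42se1, a small Cdc42 effector, stood at 0.69 and 0.60 in XY and at 0.49 and 0.30 in Wnt4 null. Its XY mean was 0.65 ± 0.07 (SD, n = 2), a 1.57-fold difference, with an adjusted p of 0.0452 with the dye term and 0.425 without it. Cdc42ep1, a Cdc42 effector of the Borg family, stood at 0.38 and 1.06 in XY, a mean of 0.72 ± 0.48 (SD, n = 2), with an adjusted p of 0.0480 with the dye term and 0.953 without it in limma. In Wnt4 null it stood at -0.02 and 0.96. Both genes were thus above 0 on both XY arrays, and Cdc42se1 was also above 0 on both Wnt4 null arrays. Cdc42se1 was the only gene of the 107 at least 1.5-fold higher on both XY arrays, a size that 1.5% of all genes reached, and 0 were lower by as much, against 1.4% of all genes.

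Among mitotic kinases, checkpoint proteins and survivin, 5 of 8 genes were above 0 on both XY arrays and 1 was below, with a median of 0.15. Birc5, the gene of survivin and a part of the chromosomal passenger complex, stood at 0.38 and 0.65, a mean of 0.52 ± 0.19 (SD, n = 2), with a limma adjusted p of 0.0788 with the dye term. Bub1b, the BubR1 kinase-like protein of the spindle checkpoint, stood at 0.48 and 0.35 (0.41 ± 0.09, SD, n = 2). Plk1, which drives mitotic entry and spindle assembly, stood at 0.21 and 0.55 (0.38 ± 0.24, SD, n = 2). These 3 genes were all above 0 on both arrays, and the limma adjusted p with the dye term was 0.108 for Bub1b and 0.123 for Plk1. Plk4, the kinase of centriole duplication, stood at 0.21 and 0.17. Aurkb, the Aurora kinase of the passenger complex, stood closer to 0 at 0.04 and 0.11. The checkpoint kinase Bub1 at 0.19 and -0.21 and its partner Bub3 at 0.26 and -0.05 changed sign with the dye. Aurkc, an Aurora kinase known chiefly from meiotic cells, was the one gene of the 8 below 0 on both arrays, at -0.25 and -0.64 (-0.44 ± 0.27, SD, n = 2).

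The kinases and phosphatases of the cell cycle had the highest median of the groups, 0.23, with 4 of 6 genes above 0 on both XY arrays and 0 below. Cdc25c, a phosphatase that activates Cdk1, stood at 0.59 and 0.40, a mean of 0.50 ± 0.14 (SD, n = 2), with a limma adjusted p of 0.0940 with the dye term. Cdk1, the kinase of mitosis, stood at 0.60 and 0.33 (0.47 ± 0.19, SD, n = 2), with an adjusted p of 0.0920 in the same limma fit. Cdc25b, another activator of Cdk1, stood at 0.21 and 0.46. All 3 of these genes act at mitotic entry, and each was above 0 on both arrays without passing the test in this fit. The 2 other fits with the dye term were chosen after seeing the data. With centring in printed blocks the limma adjusted p was 0.0455 for Cdk1 and 0.0555 for Cdc25c. With arrays scaled to a common spread it was 0.0232 for Cdk1 and 0.0245 for Cdc25c. These fits called 6 and 10 of the 107, against 654 and 1079 of all 9757 genes. Cdk4, the partner of the D cyclins, stood nearer to 0 at 0.02 and 0.21. Cdc25a, the Cdc25 phosphatase of S phase entry, was at -0.03 and 0.00. Cdk2, the partner of cyclins E and A, stood at -0.74 and 0.26 and so changed sign with the dye.

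Of 7 cyclins 3 were above 0 on both XY arrays and 1 was below. Ccna2, the cyclin of S phase and early mitosis, stood at 0.14 and 0.42. Ccnd1, which links growth signals to Cdk4, stood at 0.32 and 0.25. Both were above 0 on both arrays, as was Ccnd3 at 0.03 and 0.39. The D cyclin Ccnd2 stood at -0.55 and 0.23, and Ccnb2, a B cyclin, at -0.15 and 0.01, with opposite signs. Ccne1, which drives entry into S phase, was the cyclin below 0 on both at -0.12 and -0.06.

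Of 9 mitotic kinesins 5 were above 0 on both XY arrays and 1 was below. Kif18b, which shortens astral microtubules, stood at 0.03 and 1.06, so nearly all of its mean of 0.54 ± 0.73 (SD, n = 2) came from replicate 2. Kif22, a kinesin that binds chromosome arms, stood at 0.14 and 0.60, and Kif20a, which acts in cytokinesis, at 0.15 and 0.38. Kif11, which pushes the spindle poles apart, repeated closely but near 0, at 0.14 and 0.11. Kif23, the motor of the central spindle, was nearer still at 0.02 and 0.10. Kif18a, which steadies chromosomes at the metaphase plate, was the member below 0 on both arrays, at -0.29 and -0.31. Kif2c, a depolymerase at the centromere, had the lowest mean of all, but it stood at -1.26 on replicate 1 and 0.11 on replicate 2, so that mean rests on 1 array.

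Genes of the replication origin and helicase showed no common direction in XY. Of 18 genes 4 were above 0 on both arrays, 2 were below and 12 had opposite signs, with a median of 0.03. Cdc45, a part of the active helicase, stood at 0.17 and 0.24, and the initiation factor Mcm10 at 0.31 and 0.16. A further Mcm10 probe, which lacks a value on 1 array and was not averaged, stood at 0.01 and -0.41 in XY. The origin subunits Orc1, at -0.16 and -0.37, and Orc5, at -0.30 and -0.21, were the 2 below 0 on both arrays. The helicase subunits Mcm2 to Mcm7 had means between -0.11 for Mcm6 and 0.09 for Mcm7. Cdc6, the helicase loader, had -0.07 and 0.18, and the kinase gene Cdc7 had 0.07 and -0.12. Orc2 stood at -0.26 and 0.26 and Orc6 at 0.22 and -0.08, so all 4 of these changed sign.

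Of 15 centromere proteins 7 were above 0 on both XY arrays and 4 were below, with a median of 0.04. Cenpw, which with Cenpt forms a histone-like part of the inner kinetochore, stood at 0.54 and 0.24 (0.39 ± 0.21, SD, n = 2). Cenpb, which binds satellite DNA, stood at 0.11 and 0.32, and Cenpf, a large kinetochore protein of mitotic cells, at 0.16 and 0.03. The 4 below were Cenpc1, Cenpk, Cenpm and Cenpx, with means from -0.16 to -0.06. The 2 probes of Cenpp disagreed, one at 0.29 and 0.33 and the other at -0.17 and -0.29, so its average says little. Those of Cenpo stood at 0.06 and -0.10 and at 0.30 and 0.10. Cenpo and Cenpp are both counted among the 7 by their averages. Of 5 genes of the anaphase promoting complex and mitotic exit 3 were above 0 on both arrays and Cdc27 was below, and Cdc20, the activator of that complex, stood at 0.27 and 0.00.

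**Figure D2:**
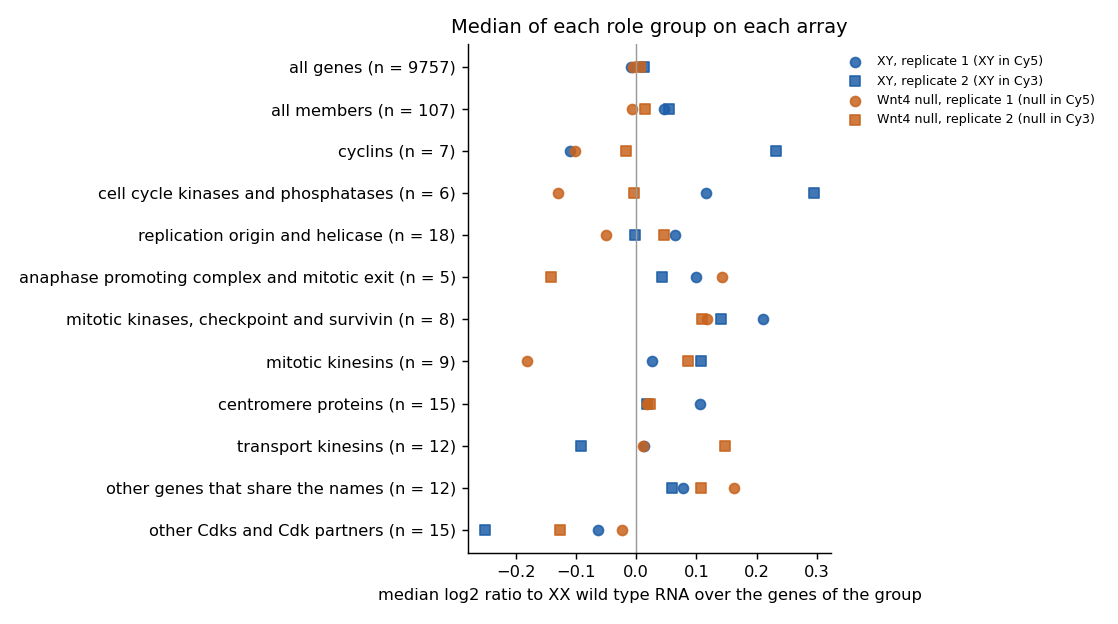
Median log2 ratio to XX wild type of each role group on each of the 4 arrays, with the number of genes in the group and a line at 0. Cell cycle kinases and phosphatases (0.12 and 0.30) and mitotic kinases, checkpoint genes and survivin (0.21 and 0.14) lie above 0 on both XY arrays, and the further Cdks (-0.06 and -0.25) lie below.

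The further Cdks and Cdk partners were the group with no gene above 0 on both XY arrays: 5 of 15 were below and 10 had opposite signs, with a median of -0.10. Cdk5r2, an activator of the neuronal kinase Cdk5, stood at -0.57 and -0.47, a mean of -0.52 ± 0.07 (SD, n = 2), with a limma adjusted p of 0.0694 with the dye term. Cdk7, the Cdk-activating kinase that is also a part of the transcription factor TFIIH, stood at -0.32 and -0.35, and Cdk5 itself at -0.28 and -0.26. The transport kinesins had 1 of 12 genes above 0 on both arrays and 2 below. One of these was Kif3a, the kinesin of cilia, at -0.35 and -0.19. Cdk3 at 1.73 and -0.60 and Cdk5r1, another Cdk5 activator, at -1.35 and 1.36 were past 1.5-fold on both arrays in opposite directions. They were named after their values had been seen. This occurred in 2 of the 107 genes, against 1.8% of all genes.

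The promoters of the division genes with the highest XY means that the RefSeq table of assembly GRCm38.p6 holds are shown because these genes lead the XY comparison. Only genes above 0 on both XY arrays were taken, and genes with a start on a chromosome left out of the display were passed over. Cdc25c, with an XY mean of 0.50, is not among those shown. Of the 107 genes 93 had an entry, with 111 starts. Capitals mark CCAAT (the letters of the NF-Y box), TTTGAA (the letters of the cell cycle homology region) and TTTGGCGC or TTTCCCGC (letters of E2F sites) on either strand, and a match on the opposite strand is printed as its reverse complement. Each run is the 250 bases before the start on the strand of the gene, 5′ to 3′.
Kif18b, chr11:102925125-102925374 (-): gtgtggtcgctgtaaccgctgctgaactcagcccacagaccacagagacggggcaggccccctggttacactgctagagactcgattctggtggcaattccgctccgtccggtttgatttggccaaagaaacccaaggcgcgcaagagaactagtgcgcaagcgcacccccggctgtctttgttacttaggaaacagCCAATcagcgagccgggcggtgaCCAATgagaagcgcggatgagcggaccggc
Birc5, chr11:117848987-117849236 (+): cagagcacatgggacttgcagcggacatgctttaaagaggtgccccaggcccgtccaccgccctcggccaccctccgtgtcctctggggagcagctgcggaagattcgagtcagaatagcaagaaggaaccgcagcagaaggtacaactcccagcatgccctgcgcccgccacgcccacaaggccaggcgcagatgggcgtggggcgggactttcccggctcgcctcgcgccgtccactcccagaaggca
Cdk1, chr10:69352913-69353162 (-): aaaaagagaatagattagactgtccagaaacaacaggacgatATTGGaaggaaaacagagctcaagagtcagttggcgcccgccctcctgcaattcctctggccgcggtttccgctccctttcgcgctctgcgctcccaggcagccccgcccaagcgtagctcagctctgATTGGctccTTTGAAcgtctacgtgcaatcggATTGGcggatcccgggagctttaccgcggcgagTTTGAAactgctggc
Bub1b, chr2:118597961-118598210 (+): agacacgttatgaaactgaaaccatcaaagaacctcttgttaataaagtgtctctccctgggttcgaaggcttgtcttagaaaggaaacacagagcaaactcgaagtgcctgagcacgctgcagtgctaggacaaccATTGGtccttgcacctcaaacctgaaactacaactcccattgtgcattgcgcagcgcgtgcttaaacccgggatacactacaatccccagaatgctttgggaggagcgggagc
Cenpw, chr10:30200541-30200790 (-): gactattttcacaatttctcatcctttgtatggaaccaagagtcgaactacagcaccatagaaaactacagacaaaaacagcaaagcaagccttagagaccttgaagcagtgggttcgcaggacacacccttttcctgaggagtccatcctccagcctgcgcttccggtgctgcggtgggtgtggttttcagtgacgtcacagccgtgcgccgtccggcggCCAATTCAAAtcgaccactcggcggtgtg
Cdk1 holds 3 CCAAT and 2 TTTGAA matches, Kif18b 2 CCAAT matches and Bub1b 1. Cenpw holds 1 of each, which share letters, and Birc5 has none of these letters in its window. CCAAT was found in 59 of the 111 windows (53.2%), against 33.8% of all 32851 windows in the table. TTTGAA was found in 19 (17.1%), against 16%, the E2F letters in 10 (9.01%), against 1.3%, and CCAAT with TTTGAA in 13 (11.7%), against 5.55%. A match is a match of letters and no more.

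In Wnt4 null gonads no common direction of the division genes was seen. Of the 107 genes 19 were above 0 on both arrays (17.8%, against 16% of all genes), 18 were below (16.8%, against 15.8%) and 70 had opposite signs (65.4%, against 68.3%), shares near those of all genes. With Wnt4 null replicate 1 turned as well, 37 were above 0 on both arrays (34.6%, against 34.8% of all genes), 33 were below (30.8%, against 33.5%) and 37 had opposite signs (34.6%, against 31.7%), so which genes share a sign rests on that direction. In the direction used, the counts among the 68 genes of division were 11, 15 and 42, with a median of 0.00. Means ran from -0.49 for Cdk14 to 0.47 for Cdc42ep1, and none reached 1.5-fold, which 2.54% of all genes did. limma called 0 of the 107 without the dye term (0% of all genes) and 0 with it (0.143% of all genes were higher and 0.0615% lower). Unadjusted p-values fell under 0.05 for 1 gene without the dye term, Cdc42se1, against 3.01% of all genes, and 15 genes with it, against 12.6%. With Wnt4 null replicate 1 turned as well, it also called 0 of the 107.

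In the direction used, Birc5 had the highest mean of the 68 genes of division, at 0.32 and 0.39, a mean of 0.36 ± 0.05 (SD, n = 2), with a limma adjusted p of 0.267 with the dye term. It was above 0 on all 4 arrays, as were Kif11, at 0.12 and 0.09 in Wnt4 null, and Plk4. Of the 68 genes Cdk4, Mcm4, Mcm10, Cenpo and Cenpp were also above 0 on all 4. Cenpo and Cenpp are averages of 2 probes. Neither Cenpo probe was above 0 on all 4 arrays, and 1 Cenpp probe stood at -0.17 and -0.29 in XY. The further Mcm10 probe stood at -0.41 on XY replicate 2. With Wnt4 null replicate 1 turned as well, the Wnt4 null mean of Birc5 was 0.04, and the highest was that of Cdk2 at 0.55. Aurkc stood at 0.28 and 0.43 and Kif3a at 0.14 and 0.49, both above 0 in Wnt4 null and below it in XY. Cdk1 at 0.40 and -0.04, Bub1b at 0.18 and -0.04, Plk1 at -0.22 and 0.23 and Cenpw at 0.25 and -0.08 all changed sign with the dye. Of the Cdc25 phosphatases Cdc25c stood at -0.12 and -0.04 and Cdc25b at -0.13 and 0.01.

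Among the genes below 0 on both Wnt4 null arrays, some of the lowest means belonged to kinesins and helicase subunits. Kif18a stood at -0.37 and -0.31 (-0.34 ± 0.05, SD, n = 2) and was below 0 on all 4 arrays, as was Cdk7, at -0.11 and -0.38 in Wnt4 null. Ccne1, Orc1 and Cenpk were also below 0 on all 4. Mcm5, a subunit of the helicase ring, stood at -0.52 and -0.25, a mean of -0.39 ± 0.19 (SD, n = 2), with a limma adjusted p of 0.226 with the dye term. Mcm2, another subunit, stood at -0.26 and -0.35 and Mcm6 at -0.06 and -0.62. These 3 of the 6 subunits were below 0 on both arrays, Mcm6 mainly on replicate 2. With replicate 1 turned as well, the mean of Kif18a was 0.03 and that of Mcm5 was 0.13. Mcm4 had a mean of 0.12, and Mcm3 and Mcm7 had opposite signs. Of all 18 genes of the origin and helicase 5 were below 0 on both arrays and 2 were above. Bub1 at -0.25 ± 0.06 (SD, n = 2) and Kif24, a kinesin that restrains cilia, at -0.34 ± 0.26 (SD, n = 2) were also among the lowest.

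**Figure D3:**
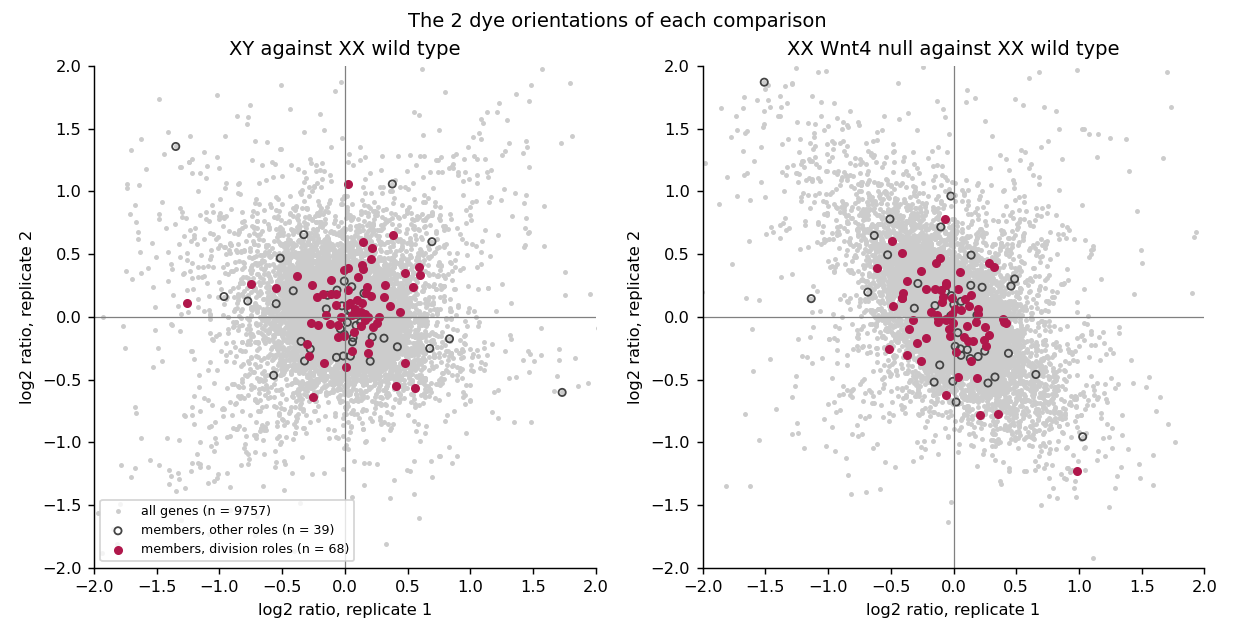
Log2 ratio on replicate 1 (horizontal) against replicate 2 (vertical) for all genes in grey, the 68 genes of division as filled points and the 39 others as open points, with XY in the left panel and Wnt4 null in the right; a few genes lie beyond the axes, which end at -2 and 2. In XY 37 of the 107 lie in the upper right and 18 in the lower left, and in Wnt4 null 70 lie in the quadrants of opposite sign.

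Differences between dye orientations were as large as those between genotypes. Over the 107 genes the dye effect, taken for each gene as the distance between the mean of the arrays of one dye orientation and the mean of all 4 arrays, had a median size of 0.136, against a median absolute mean of 0.118 in XY and 0.105 in Wnt4 null. Cdk5r1 was the extreme, at -1.51 and 1.87 in Wnt4 null, low on both arrays that carried the compared RNA in Cy5 and high on both that carried it in Cy3. With it, Kif1a, Kif1c and Kif2b passed 1.5-fold on both Wnt4 null arrays in opposite directions, 4 of the 107 genes against 5.69% of all genes. 0 of the 107 passed 1.5-fold in 1 direction on both, against 0.584% of all genes higher and 0.512% lower. Kif1a and Kif1c carry vesicles along axons and Kif2b acts at the spindle, and they too were named after their values had been seen. The promoters of the 2 helicase genes of the table with the lowest Wnt4 null means are shown with the same capitals, as the E2F letters occur in 22.7% of the 22 windows of this group.
Mcm5, chr8:75109259-75109508 (+): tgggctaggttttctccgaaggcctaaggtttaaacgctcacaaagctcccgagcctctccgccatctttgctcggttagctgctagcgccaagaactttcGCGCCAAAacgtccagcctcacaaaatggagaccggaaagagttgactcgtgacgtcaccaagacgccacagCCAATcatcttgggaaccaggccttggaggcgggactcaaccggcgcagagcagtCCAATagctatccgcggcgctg
Mcm6, chr1:128359706-128359955 (-): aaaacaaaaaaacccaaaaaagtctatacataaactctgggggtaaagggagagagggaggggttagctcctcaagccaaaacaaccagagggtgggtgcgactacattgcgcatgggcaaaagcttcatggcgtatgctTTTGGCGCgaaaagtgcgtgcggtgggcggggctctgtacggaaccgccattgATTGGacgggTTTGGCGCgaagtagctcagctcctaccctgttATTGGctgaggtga
Mcm5 holds 2 CCAAT matches and 1 of the E2F letters, and Mcm6 holds 2 of each.

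The difference between XY and Wnt4 null was tested directly, as the contrast of both comparisons. Both have an XX wild type reference, and arrays of the same dye orientation were set against each other. Any difference between the reference RNAs of the comparisons would enter this contrast. XY was above Wnt4 null in both orientations for 39 of the 107 genes (36.4%, against 26.5% of all genes), below in both for 18 (16.8%, against 28.9%) and of opposite sign for 50 (46.7%, against 44.5%). With Wnt4 null replicate 1 turned as well, 40 were above (37.4%, against 32.4% of all genes), 24 below (22.4%, against 33.6%) and 43 of opposite sign (40.2%, against 34%). In the direction used, the counts among the 68 genes of division were 31, 10 and 27, with a median of 0.07. limma called 0 of the 107, and 0% of all genes, without the dye term and with it. At an unadjusted p under 0.05 it held Aurkc and Cdc25c without the dye term, 2 of the 107 against 1.64% of all genes, and 12 genes with it, against 9.43%.

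Kif18b was the only gene of the 107 at least 1.5-fold higher in XY than in Wnt4 null in both orientations, which 0.871% of all genes were, and 0 were lower by as much, against 0.81% of all genes. Its XY value exceeded its Wnt4 null value by 0.63 in one orientation and by 0.66 in the other, a mean of 0.65 and a 1.57-fold difference, with a limma adjusted p of 0.366 with the dye term. Single arrays placed it anywhere from -0.61 to 1.06, so arrays of opposite dye orientation differed by more than the genotypes did. Cdc25c followed, with a mean difference of 0.58 and a limma adjusted p of 0.408 with the dye term. Ccnd1 was 0.51 higher in XY, Kif22 0.44, Mcm5 0.40, Cdc25b 0.39, Plk1 0.38, Mcm2 0.37 and Bub1b 0.34, with limma adjusted p-values between 0.447 and 0.527 in that fit. Mcm2 and Mcm5 were near 0 in XY, so their differences come from values below 0 in Wnt4 null. On the other side Aurkc was lower in XY by a mean difference of -0.80, Kif3a by -0.59 and Cdk5r2 by -0.51. None of these differences passed the test. With Wnt4 null replicate 1 turned as well, limma again called 0 of the 107, and the mean difference was 0.04 for Kif18b, 0.45 for Cdc25c and -0.52 for Aurkc.

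**Figure D4:**
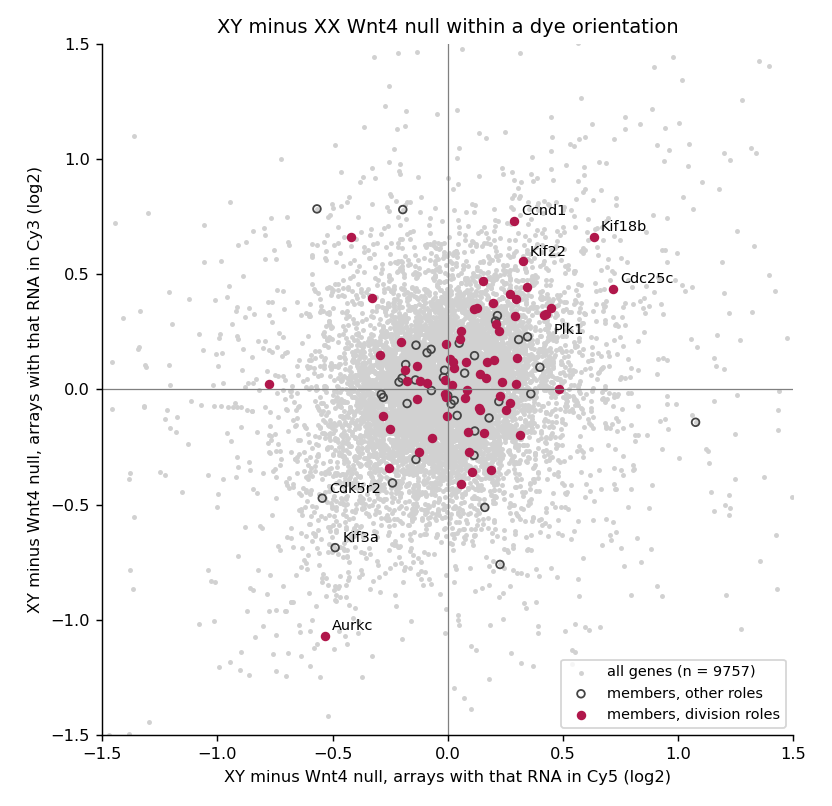
XY minus Wnt4 null (log2) on the arrays with that RNA in Cy5 (horizontal) against the arrays with it in Cy3 (vertical), for all genes in grey, the 68 genes of division as filled points and the 39 others as open points; genes beyond -1.5 or 1.5 are not drawn. Of the 107 genes 39 lie in the upper right, Kif18b, Cdc25c and Ccnd1 among them, and 18 in the lower left with Aurkc at the bottom.

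Other genes of the cell cycle were read from lists chosen with earlier results of these data known. Of 9 measured Cdk inhibitors and pocket proteins, which hold the cycle back, limma with the dye term called 2 lower in XY (1.63% of all genes were) and 0 higher (1.79%), and without it called 0. Cdkn1c, the inhibitor p57, stood at -1.96 and -1.56 in XY, a mean of -1.76 ± 0.28 (SD, n = 2) with an adjusted p of 0.0145 with the dye term and 0.226 without it. Cdkn1a, the inhibitor p21, stood at -1.42 and -0.96 (-1.19 ± 0.32, SD, n = 2), with a limma adjusted p of 0.0311 with the dye term and 0.544 without it. In Wnt4 null Cdkn1c stood at -1.29 and -0.64 and Cdkn1a at -1.12 and -0.08, and limma called neither. The median of the list was -0.19 in XY and -0.08 in Wnt4 null, and its highest XY means were Rbl2 at 0.23 and Rbl1 at 0.17, genes of pocket proteins.

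Of 33 measured proliferation genes outside the chosen symbols 19 were above 0 on both XY arrays (57.6%, against 22.3% of all genes), 4 were below (12.1%, against 21.9%) and 10 had opposite signs (30.3%, against 55.7%), with a median of 0.19. limma with the dye term called 1 of the 33 higher (1.79% of all genes were) and 0 lower (1.63%). The called gene was Nuf2 of the outer kinetochore, at 0.71 and 0.51 (0.61 ± 0.14, SD, n = 2). Its limma adjusted p was 0.0498 with the dye term and 0.477 without it. Tpx2, the spindle assembly factor, followed with a mean of 0.45 ± 0.32 (SD, n = 2). The lowest were the transcription factor E2f5 at -0.26 and the checkpoint kinase Chek1 at -0.20. In Wnt4 null 7 were above 0 on both arrays (21.2%, against 16%), 2 were below (6.06%, against 15.8%) and 24 had opposite signs (72.7%, against 68.3%), with a median of 0.00 and 0 called with or without the dye term. The difference between XY and Wnt4 null had a median of 0.22 over this list, with 20 genes above in both orientations (60.6%, against 26.5% of all genes), 2 below (6.06%, against 28.9%) and 0 called.

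Markers of the cell types of the gonad differed beside these values. The Sertoli list had a median of 0.90 in XY and 0.16 in Wnt4 null. In XY 4 of its 6 genes were above 0 on both arrays, against 22.3% of all genes. With the dye term limma called 4 of the 6 higher in XY, against 1.79% of all genes. The list of ovary supporting cells, leaving out Wnt4 itself, had medians of -2.38 in XY and -2.22 in Wnt4 null. Of its 4 genes 3 were below 0 on both XY arrays, against 21.9% of all genes. On both Wnt4 null arrays 4 of 4 were below 0, against 15.8% of all genes. These 4, Fst, Irx3, Lgr5 and Sp5, stood between -3.02 and -1.35 there in the direction used. With Wnt4 null replicate 1 turned as well, each of them would have opposite signs on that pair. With the dye term 3 of these 4 were called lower in XY, against 1.63% of all genes, and 2 in Wnt4 null, against 0.0615%. The germ cell list had a median of -0.52 in XY, with 8 of 11 genes below 0 on both arrays, against 21.9% of all genes. With the dye term 5 of the 11 were called lower in XY, against 1.63% of all genes. In Wnt4 null its median was -0.04, with 4 of 11 below 0 on both arrays (36.4%, against 15.8% of all genes). There 1 was above on both and 6 had opposite signs. Stra8 stood at -0.70 and -1.39 in Wnt4 null and Dppa5a at 0.65 and 0.77. The fit with the dye term called 0 of the 11 in Wnt4 null. Without the dye term limma called 0 genes of any of these lists. The macrophage list had medians of -0.03 in XY and 0.48 in Wnt4 null, with 5 of 7 genes above 0 on both Wnt4 null arrays, against 16% of all genes. The endothelial list had medians of 0.16 and 0.10 over 5 genes, and the red blood cell list -0.03 and 0.09 over 5 genes. With the dye term limma called Thbd of the endothelial list higher in XY (1.79% of all genes were) and in Wnt4 null (0.143%). It called Nfe2 of the red blood cell list higher in XY, and 0 genes of the macrophage list. Without the dye term it called 0 genes of these lists too. Ratios do not show which markers are absent, and the part of these cell types in the values of the division genes was not tested.

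The other 13 of the 120 genes lacked a value on at least 1 array and entered no fit. Aurka, the Aurora kinase of the spindle poles, Kif15, Kif17, Kif21a and Kif5c had no value on any array. Of the others, Cdk6, a partner of the D cyclins, stood at 0.10 on XY replicate 1 and -0.18 on Wnt4 null replicate 2. Cenpa, the centromeric histone, was measured once, at 2.86 on XY replicate 2. Plk2 stood at 0.50 on XY replicate 2 and at -0.59 and 1.08 in Wnt4 null, and Cdc73, a part of a transcription elongation complex, at 1.43 on XY replicate 1 and at 1.27 and -1.03 in Wnt4 null. Kif3b and Kif2a had 3 values each, between -0.23 and 0.60, and Ccna1 and Ccnb3 had 1 and 2, between -0.80 and 0.18.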

How the data were processed

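The authors deposited 1 log2 ratio of the dyes per spot and array, per the file headers and labels, with blanks where none was given. Base 2 was inferred from the lowest value of XY replicate 1, -6.64, the log2 of 0.01. The authors' background correction and normalization are not given in the sources used here, and scale and centring are known only from the values (column medians -0.0019, -0.0172, 0.0084 and -0.0388). The 4 arrays had 12866 to 14533 values among 17664 spots. Their number limits the precision, and p-values measure the spread between arrays, which may be technical.

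Values were joined to the platform's gene names after swapping the row and column order inside every print block, a step inferred from the values themselves. All gene names rest on it: the rank correlation of 2 probes of a gene in XY was 0.315 (499 pairs), against -0.0067 in the deposited order (467 pairs). In Wnt4 null it was lower, at 0.130, against 0.0086 in the deposited order. Of the spots, 14010 had 1 symbol, 13 several and 3641 none.

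XY replicate 1 was turned, arrays were centred on their medians and probes averaged per gene (3 of the 107 genes had 2 probes on all 4 arrays; for 7 others a further probe lacked at least 1 array and was dropped). Moderated linear models (limma 3.58.1, R 4.3.3) were fitted over all 9757 genes with a coefficient per comparison. Genes were called at a two-sided Benjamini-Hochberg p under 0.05 taken over all genes. Alternatives were a dye term, other centring and scaling, other directions, 1 row per probe, spots on both arrays of a comparison, and leaving out each array. Genes were named if called, if among the 8 highest or 8 lowest means of like sign, or if on a list of cell cycle anchors; any other named gene was chosen after its values were seen. The genes, lists and rules were chosen with earlier results of these data known.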

Additional observations from a re-analysis of the deposited data

Results flagged for a closer look

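In 7 of the 107 genes (6.54%, against 4.85% of all genes) both XY arrays lay on one side of XX wild type and both Wnt4 null arrays on the other. XY minus Wnt4 null was -0.80 for Aurkc, -0.59 for Kif3a, -0.20 for Cenpx, -0.14 for Cenpc1, 0.10 for Kif23, 0.14 for Aurkb and 0.58 for Cdc25c on the log2 scale. limma tested each difference as a contrast, and none passed, with adjusted p-values from 0.408 for Aurkc, Kif3a and Cdc25c to 0.856 for Kif23 with the dye term. The values of Cenpx, Cenpc1, Kif23, Aurkb and Cdc25c include arrays within 0.06 of 0. With Wnt4 null replicate 1 turned as well, 12 of the 107 genes (11.2%, against 11.9% of all genes) stood on opposite sides in this way, and Aurkc, Kif3a and Cdc25c were not among them.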

How the results depend on the processing

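Without the dye term limma called 0 of the 107 genes in each comparison under every centring, scaling, direction and left-out array that was run. With it, 2 were called in XY (of 334 genes in all), 6 of 654 with centring in printed blocks, and 10 of 1079 with arrays scaled to a common spread. Both combined settings were chosen after seeing the data. They added Birc5, Cdk1, Cdk5r2 and Kif18b, and scaling also added Bub1b, Cdc25c, Cenpw and Plk1. Over these 3 fits the adjusted p ran from 0.00728 to 0.0452 for Cdc42se1 and from 0.00504 to 0.0480 for Cdc42ep1. In Wnt4 null the 3 fits called 20, 179 and 138 genes, and in the difference 0, 29 and 72, with 0 of the 107 in any. Spots on both XY arrays gave 5 called genes in XY, and leaving out an array gave 0 to 20, with 20 without either Wnt4 null replicate and 1 without XY replicate 2. A left-out array leaves a comparison with 1 array, assumed to vary like the other pair. The XY median of the 107 genes, 0.0392, was 0.0315 without centring, -0.0049 with all columns as deposited, and 0.0463 to 0.055 with an array left out. The Wnt4 null median, -0.0081, was -0.0233, 0.0214 with replicate 1 of that pair turned too, and -0.0065 to 0.0141. Of 49 named genes the mean changed sign in 24 in XY with all columns as deposited, in 21 in Wnt4 null with its replicate 1 turned, and in 7 to 13 when an array of the comparison was left out. The labels carry no replicate numbers. Arrays of both comparisons can be paired by dye orientation, and the fit with the dye term is that paired analysis. For the difference, spots on both arrays of a comparison give no other set than the main one.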
